A study of Mus musculus with 4 samples.

Results

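The RNAs described here are the non-coding short RNAs that every cell uses to read out its genomes. They are the tRNAs and rRNAs of the mitochondrial genome, the U RNAs of splicing, histone RNA processing and ribosome building, and a few RNAs that work as the core of an enzyme or particle. They were taken from the gene symbols of the deposited comparison table: symbols starting with mt-, Rnu and a digit, Rn7s or Rny and a digit, and the symbols Rpph1, Rmrp, Vaultrc5 and Terc. The rule found 46 probe sets of 32202 with a symbol, and no measured value entered it. The 46 probe sets carry 35 symbols, because Rnu1b1 has 9 probe sets and Rnu3b4 has 4, with the same 4 values in each set of copies. Such copies were counted once wherever a count is given over the 35 distinct RNAs, which are 18 mitochondrial tRNAs, 2 mitochondrial rRNAs, 8 U RNAs and 7 others. Mitochondrial messenger RNAs, U2, U4 and U6 RNA and the 7SL RNA were not analysed here.

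The RNA came from the colon of Balb/c mice. The 2 maltodextrin arrays (numbered 3 and 4) are from mice whose drinking water held 5% maltodextrin, a starch-derived food additive, for 45 days, and the 2 control arrays (numbered 1 and 2) are from mice given drinking water without it for the same time. No genetic change, age or sex is used to set the groups apart. Total RNA was taken with a column kit and DNase and hybridised to GeneChip Mouse Gene 2.0 ST arrays, which give 1 log2 intensity per probe set. Nothing in the labels tells whether each array is from its own mouse. The p-values therefore cover the spread among these 4 samples alone, and that spread may be technical.

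The mitochondrial genome is transcribed from both strands into long precursors, in which tRNAs stand between the rRNAs and the messenger RNAs. Cutting out the tRNAs frees the other products, so most mitochondrial RNAs share a precursor and differ mainly in processing and stability. In the nucleus, U1 RNA recognises the 5′ splice site of most introns, while U11 and U12 do the matching work for the rare minor class of introns. U3 RNA directs the first cleavages of the ribosomal RNA precursor, RNase P trims the 5′ ends of nuclear tRNAs, and RNase MRP cuts the ribosomal RNA precursor. The colon epithelium renews itself continually and its absorptive cells are rich in mitochondria.

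Most of these RNAs were lower on the maltodextrin arrays, and the difference was largest for U3, U1 and RNase P RNA and for a set of mitochondrial tRNAs. Each difference is the maltodextrin mean minus the control mean in log2 units, with the SE of the limma fit over all named probe sets. No named probe set reached an adjusted p of 0.05 (limma, Benjamini-Hochberg), so calls below use a nominal criterion, which asks for a fold of 1.5 or more and an unadjusted p under 0.05. At that criterion 19 of the 35 distinct RNAs (30 of 46 probe sets) were lower and 0 were higher in maltodextrin. Many of these calls ended with 1 array left out, as given below, and calls over all named probe sets changed in number too. The median difference of the 35 distinct RNAs was -0.96. It was -0.92 or -0.91 without control 1 or control 2, and -1.07 or -0.70 without maltodextrin 3 or 4. With all 4 arrays, 12.1% of all named probe sets met the nominal criterion in either direction, 3.56% lower and 8.51% higher in maltodextrin. Over the 17845 named probe sets whose mean log2 was 5 or more, the shares were 3.44% lower and 14.7% higher. On both maltodextrin arrays 25 of the 35 distinct RNAs (36 of 46 probe sets) lay below both controls, and 1, the Y RNA Rny3, lay above both. Over all named probe sets 24.7% lay below both controls and 25.6% above. The members' share on the lower side is thus well over that of the array as a whole, and their share on the higher side well under it. In bulk tissue, fewer cells of a type and less RNA per cell cannot be told apart.

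**Figure D1:**
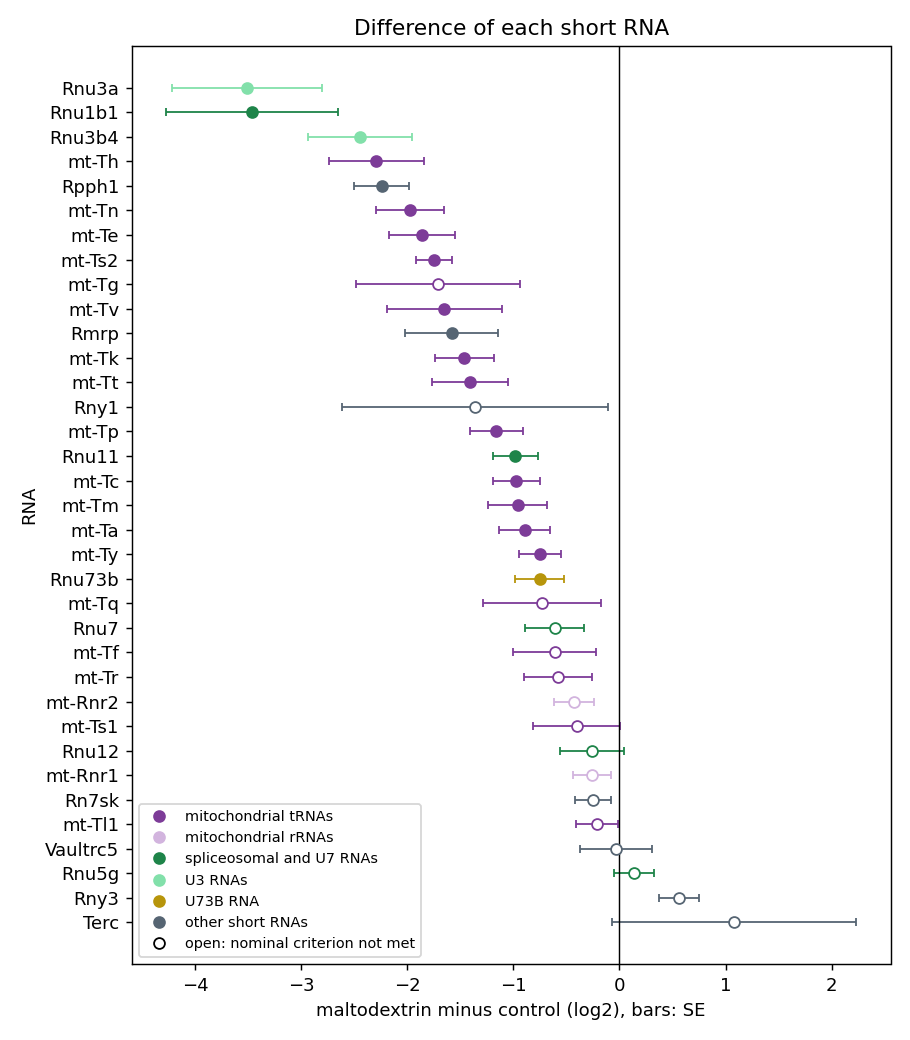
Difference of each of the 35 distinct RNAs (horizontal axis, maltodextrin minus control, log2, bars are the SE of the limma fit), ordered by size, with filled points for those at the nominal criterion. Filled points run from -3.51 for Rnu3a to -0.75 for mt-Ty and Rnu73b, and all lie left of 0.

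The 4 arrays had close overall levels, with medians of the named probe sets of 5.26 and 5.28 on the maltodextrin arrays and 5.39 and 5.28 on the controls. As a guide to background, 95% of 1480 olfactory and vomeronasal receptor probe sets had a mean below 5.92. All 10 colon epithelium markers were above this guide on every array, with marker medians of 11.77 and 11.50 on the maltodextrin arrays and 11.61 and 11.96 on the controls. Control 2 stood apart in other markers. The median of 14 pancreatic acinar markers was 4.86 and 4.66 on the maltodextrin arrays, 4.88 on control 1 and 9.12 on control 2, with 3, 2, 4 and 11 of the 14 above the guide in that order, and the log2 of their summed level was 10.26, 11.44, 10.30 and 13.53. All 8 adipocyte markers were highest on control 2. Macrophage and plasma cell markers moved with the groups: at the nominal criterion 5 of 7 macrophage and 4 of 7 plasma cell markers were higher in maltodextrin. Of 10 B cell markers 2 were lower, as were 2 of the 14 pancreatic acinar markers. The log2 summed level of the macrophage markers was 11.23 and 11.60 in maltodextrin and 10.43 and 10.06 in controls, and that of the plasma cell markers 12.43 and 13.03 in maltodextrin and 11.61 and 11.06 in controls. That of the B cell markers was 10.88 and 11.99 in maltodextrin and 12.48 and 11.77 in controls, so the groups overlap. The part these cells have in the results was not tested.

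The 18 mitochondrial tRNAs all had lower means in maltodextrin, with differences from -2.29 to -0.21. Their median difference was -1.07, against -0.04 for all named probe sets. Their median level was 8.54 and 8.35 in maltodextrin, against 9.72 and 9.30 in controls. At the nominal criterion 12 of 18 were lower (66.7%), and 14 lay below both controls, against 3.56% and 24.7% of all named probe sets. For 15 of the 18 the difference between groups was larger than the gap between the controls. The same held for 14417 of the 32202 named probe sets. Adjusted p-values of the 18 lay between 0.198 and 0.666 (limma).

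The histidine tRNA mt-Th had 9.14 and 8.53 in maltodextrin, against 10.57 and 11.67 in controls. The groups do not overlap, and the difference was -2.29 (SE 0.45, adjusted p = 0.246, limma), or 4.87-fold lower in maltodextrin. Its direct neighbour on the same strand, the serine tRNA mt-Ts2, had 6.31 and 6.28 on the maltodextrin arrays and 8.10 and 7.99 on the controls. Here both pairs of replicates were within 0.11 of each other, and the difference of -1.75 had the smallest SE of the class (0.17, adjusted p = 0.198, limma). The asparagine tRNA mt-Tn had 8.21 and 8.46 in maltodextrin and 9.91 and 10.70 in controls, a difference of -1.97 (SE 0.32, adjusted p = 0.232, limma). The glutamate tRNA mt-Te had 9.62 and 9.95 in maltodextrin and 11.28 and 12.01 in controls, a difference of -1.86 (SE 0.31, adjusted p = 0.232, limma). Both also separate the groups by more than either group's own spread. These 4, with the lysine tRNA mt-Tk (8.84 and 8.21 in maltodextrin, 9.87 and 10.10 in controls), stayed at the nominal criterion with any 1 array left out. The call of mt-Th ended, however, with an ordinary equal-variance test and with the authors' deposited p-value.

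The glycine and valine tRNAs had large differences that rest on control 2. mt-Tg had 9.83 and 9.39 in maltodextrin and 10.20 and 12.45 in controls, a difference of -1.71 (SE 0.77, adjusted p = 0.393, limma) that missed the nominal criterion and was -0.59 without control 2. mt-Tv had 11.40 and 10.67 in maltodextrin and 12 and 13.37 in controls, a difference of -1.65 (SE 0.54, adjusted p = 0.310, limma). Its call ended without control 2, where the difference was -0.96, and without maltodextrin 4, where it was -1.29. For both the maltodextrin arrays lay below both controls.

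The other tRNAs at the nominal criterion were those of threonine (mt-Tt, -1.41), proline (mt-Tp, -1.16), cysteine (mt-Tc, -0.97), methionine (mt-Tm, -0.96), alanine (mt-Ta, -0.89) and tyrosine (mt-Ty, -0.75). Each of these calls ended when 1 array was left out: mt-Tt and mt-Tp without maltodextrin 3, mt-Tc and mt-Ta without maltodextrin 4, mt-Ty without either maltodextrin array, and mt-Tm without maltodextrin 4 or control 2 (-0.74 without control 2). The difference of mt-Tt was -0.92 without control 1. The maltodextrin means of mt-Tt (5.51), mt-Tc (5.47) and mt-Tp (5.70) lay under the guide to background and their control means (6.92, 6.44 and 6.86) above it.

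The remaining tRNAs did not meet the criterion. The glutamine tRNA mt-Tq was low on maltodextrin 4 alone, with 6.92 and 5.28 in maltodextrin and 6.78 and 6.88 in controls. Its difference of -0.73 turned to 0.08 without maltodextrin 4, and its probe set may match several transcripts. The differences of mt-Tf (phenylalanine, -0.61), mt-Tr (arginine, -0.58) and mt-Ts1 (serine, -0.40) were under 2 times their SE (0.39, 0.32 and 0.41). Of these, mt-Tr lay below both controls on both maltodextrin arrays but had -0.18 without maltodextrin 4. Without control 1, mt-Tf had -0.13 and mt-Ts1 turned to 0.17. The leucine tRNA mt-Tl1, whose signal is near the top of the scale, had 13.54 and 13.25 in maltodextrin and 13.69 and 13.53 in controls. Its groups overlap, and the difference was -0.21 (SE 0.20, adjusted p = 0.641, limma).

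The 2 mitochondrial rRNAs had small differences. mt-Rnr1, the RNA of the small mitochondrial ribosomal subunit, had 13.78 and 13.70 in maltodextrin and 13.92 and 14.06 in controls, a difference of -0.26 (SE 0.18, adjusted p = 0.525, limma). mt-Rnr2, the RNA of the large subunit, had 13.21 and 13.10 in maltodextrin and 13.44 and 13.72 in controls, a difference of -0.43 (SE 0.19, adjusted p = 0.393, limma). In both, the maltodextrin arrays lay below both controls, but neither met the nominal criterion. The highest probe set of any kind on an array was between 14.04 and 14.37, so these rRNAs and mt-Tl1 sit close to the top of the scale, where an intensity can level off; whether it did was not tested.

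Along the mitochondrial map, neighbours from one precursor had unequal differences. In the reference gene table (GRCm38.p6) the order at the start of the rRNA strand is mt-Tf, mt-Rnr1, mt-Tv, mt-Rnr2 and mt-Tl1, and their differences were -0.61, -0.26, -1.65, -0.43 and -0.21. In the cluster of mt-Ta, mt-Tn, mt-Tc and mt-Ty on the opposite strand they were -0.89, -1.97, -0.97 and -0.75. The 10 tRNAs of the strand that also carries the rRNAs had a median difference of -1.44, with 6 at the nominal criterion, and the 8 tRNAs of the opposite strand had a median of -0.93, with 6 at the criterion. Between the maltodextrin arrays, number 4 was above number 3 for 1 of the 10 tRNAs of the rRNA strand and for 5 of the 8 of the opposite strand. Of those 5, mt-Ty had 6.93 on both arrays at the precision given. No test of these differences between neighbours or strands was made.

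**Figure D2:**
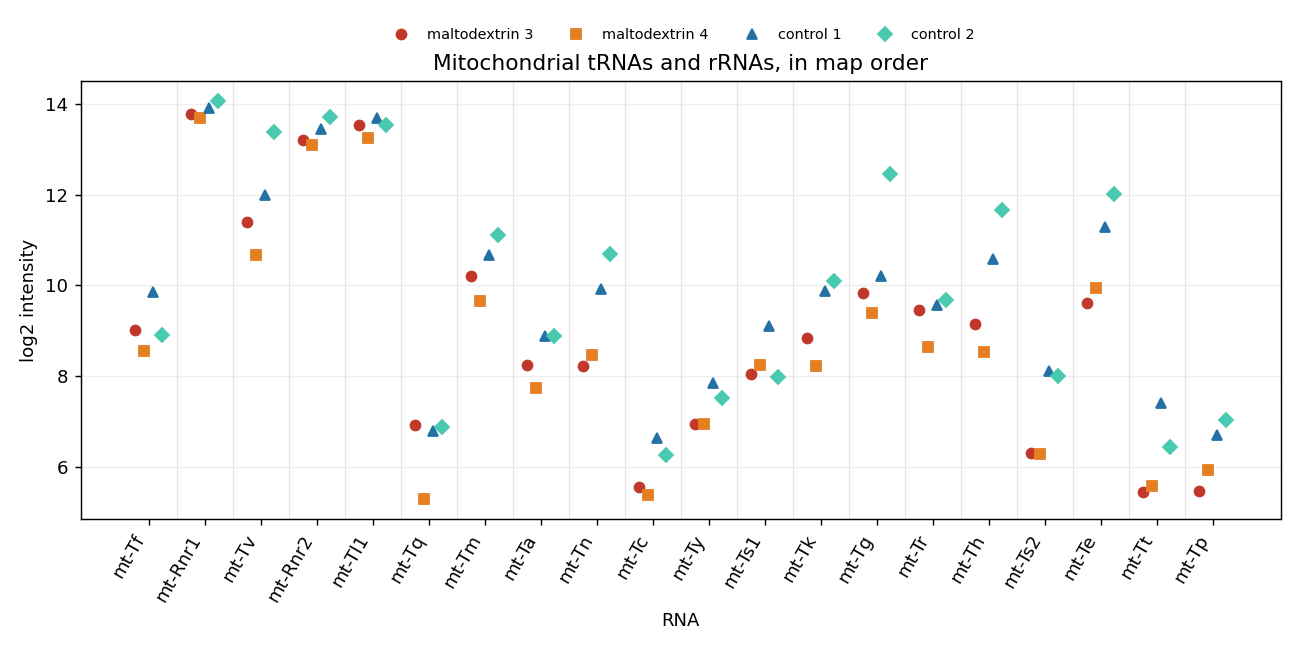
Log2 intensity of the 18 mitochondrial tRNAs and 2 rRNAs on each of the 4 arrays, in the order of the mitochondrial map (not to scale), with 1 point per array. The orange and red maltodextrin points of mt-Th (9.14 and 8.53) lie far under its controls (10.57 and 11.67), while the 4 points of mt-Rnr1 lie within 13.70 to 14.06; levels of different RNAs come from different probes and are not compared.

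The U RNAs held the largest differences. Rnu1b1, a U1 RNA, had 6.23 and 5.97 in maltodextrin and 8.37 and 10.76 in controls. The groups do not overlap, but the controls are themselves 2.39 apart. The difference was -3.46 (SE 0.81, adjusted p = 0.257, limma), and it was -2.26 without control 2, still at the nominal criterion. Its 9 probe sets carry identical values and are marked as able to match several transcripts, so they are 1 measurement of a family of near-identical U1 genes.

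Both U3 RNAs were lower. Rnu3a had 4.50 and 4.57 in maltodextrin and 6.99 and 9.10 in controls, a difference of -3.51 (SE 0.71, adjusted p = 0.246, limma) that was -2.46 without control 2. Both maltodextrin values lie under the guide to background of 5.92, so its fold and its place as the largest difference have no firm value. Rnu3b4, one of the U3B copies, had 8.13 and 8.30 in maltodextrin and 9.96 and 11.35 in controls, a difference of -2.44 (SE 0.49, adjusted p = 0.246, limma) that was -1.75 without control 2. In each of these U RNAs the maltodextrin arrays agreed closely and control 2 was above control 1. Rnu3a, Rnu3b4 and Rnu1b1 stayed at the nominal criterion with any 1 array left out. Their calls ended, however, with an ordinary equal-variance test and with the authors' deposited p-values. Rnu3b4 lies within the interval of Tex14 in the reference table, and its 4 probe sets may match several transcripts.

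The minor spliceosome RNAs did less. Rnu11, the U11 RNA, had 9.63 and 9.77 in maltodextrin and 10.85 and 10.50 in controls. Its difference of -0.98 (SE 0.21, adjusted p = 0.250, limma) did not need control 2, without which it was -1.15, but the call ended without maltodextrin 3. Rnu12, the U12 RNA that pairs with the branch point of the same introns, had 7.58 and 7.52 in maltodextrin and 7.43 and 8.18 in controls. The groups overlap, and the difference of -0.26 (SE 0.30, adjusted p = 0.704, limma) turned to 0.12 without control 2. Rnu7, which guides the 3′ end cut of replication-dependent histone messages, had 4.11 and 3.79 in maltodextrin and 4.25 and 4.87 in controls, with a difference of -0.61 (SE 0.28, adjusted p = 0.400, limma) that was -0.30 without control 2. Rnu5g, a U5 RNA of the spliceosome core, had 3.05 and 2.83 in maltodextrin and 2.88 and 2.71 in controls, with a difference of 0.14 (SE 0.19, adjusted p = 0.745, limma). Rnu7 and Rnu5g lay under the guide to background in both groups and say little about the amount of these RNAs. The probe sets of Rnu11, Rnu12, Rnu7 and Rnu5g may also match several transcripts.

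Rnu73b is named among the U RNAs but is Snord73b by its accession in the reference table, a box C/D guide RNA that lies within the interval of the ribosomal protein gene Rps3a1. It had 11.70 and 11.58 in maltodextrin and 12.16 and 12.62 in controls, a difference of -0.75 (SE 0.23, adjusted p = 0.299, limma). The groups do not overlap, but the call ended without control 2, where the difference was -0.52, and without either maltodextrin array. Over all 8 distinct U RNAs, Rnu73b included, 5 were lower at the nominal criterion and 0 higher, and their median difference was -0.87. The share lower over all named probe sets was 3.56%. Of the 5 distinct spliceosomal and U7 RNAs 2 were lower, Rnu1b1 and Rnu11, with a median of -0.61. Over the 19 probe sets of all U RNAs the median was -3.46, which is the value of the 9 Rnu1b1 copies.

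Of the enzyme and particle RNAs, the cores of both cleavage enzymes were lower. Rpph1, the catalytic RNA of RNase P, had 10.48 and 10.66 in maltodextrin and 12.52 and 13.11 in controls. The gap between the groups was several times the spread within either, and the difference was -2.24 (SE 0.26, adjusted p = 0.210, limma), or 4.74-fold lower. It stayed at the nominal criterion with any 1 array left out, with values from -2.54 without control 1 to -1.95 without control 2. Rmrp, the related RNA of RNase MRP, had 10.96 and 10.81 in maltodextrin and 11.86 and 13.07 in controls, a difference of -1.58 (SE 0.44, adjusted p = 0.282, limma). Its call ended without either maltodextrin array, and the difference was -0.97 without control 2.

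None of the other particle RNAs was lower at the nominal criterion. Rn7sk, the 7SK RNA that holds the elongation factor P-TEFb inactive, had 13.68 and 13.62 in maltodextrin and 13.84 and 13.96 in controls, a difference of -0.25 (SE 0.17, adjusted p = 0.531, limma). Like the mitochondrial rRNAs it lies near the top of the scale, with maltodextrin below both controls. The Rn7sk probe set may also match several transcripts. Rny3, a Y RNA that binds the Ro60 protein, went the other way, with 8.95 and 8.80 in maltodextrin and 8.42 and 8.20 in controls. Its groups do not overlap, and the difference was 0.56 (SE 0.19, adjusted p = 0.314, limma), a fold of 1.48 that fell just short of the nominal criterion and met it when the arrays were centred on their medians.

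Rny1, the neighbouring Y RNA gene, had 7.23 and 5.90 in maltodextrin and 6.16 and 9.70 in controls, on a probe set that may match several transcripts. The groups overlap, and the difference of -1.36 (SE 1.25, adjusted p = 0.628, limma) turned to 0.40 without control 2. Terc, the template RNA of telomerase, had 9.73 and 10.27 in maltodextrin and 10.63 and 7.21 in controls, so that control 2 alone was low. Its difference of 1.08 (SE 1.15, adjusted p = 0.673, limma) turned to -0.62 without control 2. Vaultrc5, the vault RNA, had 5.64 and 5.29 in maltodextrin and 5.90 and 5.09 in controls, a difference of -0.03 (SE 0.34, adjusted p = 0.971, limma) at the level of background. For these 3 RNAs no direction can be given.

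**Figure D3:**
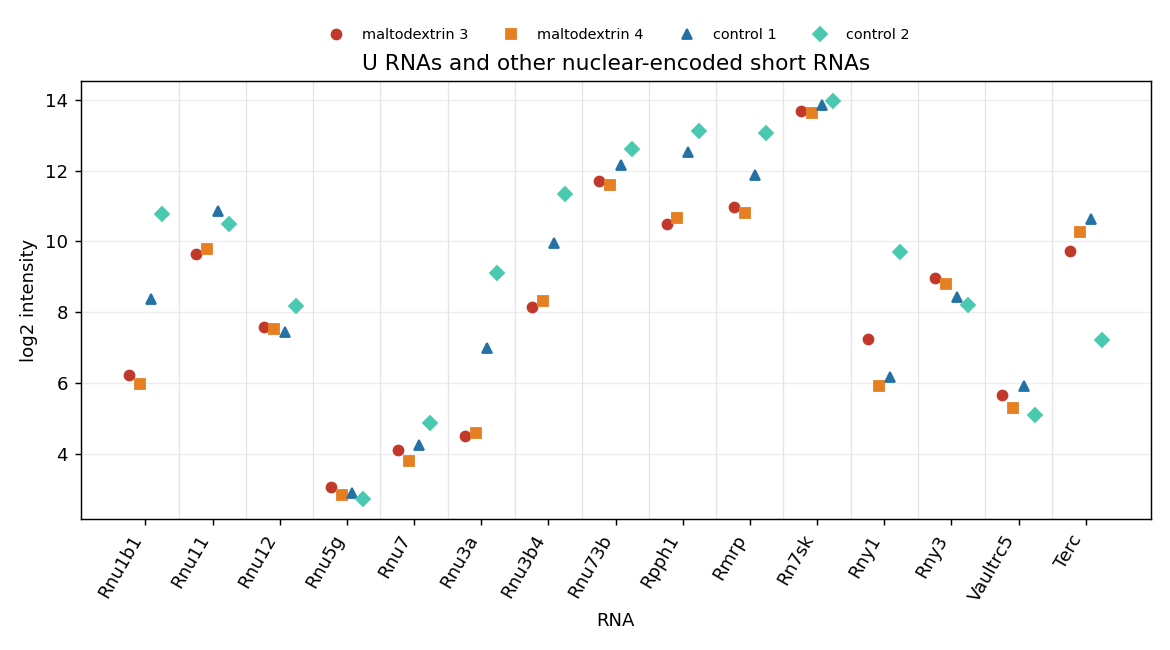
Log2 intensity of the 8 U RNAs and 7 other nuclear-encoded short RNAs on each of the 4 arrays, with 1 point per array. The maltodextrin points of Rpph1 (10.48 and 10.66) lie together under both controls (12.52 and 13.11), those of Rny3 (8.95 and 8.80) lie above both controls (8.42 and 8.20), and control 2 stands alone in Rny1 (9.70) and Terc (7.21).

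Members were also set in order of RNA length. The 20 distinct RNAs of 59 to 75 nucleotides in the reference table had a median difference of -0.96, with 13 at the nominal criterion. The 6 of 101 to 165 nucleotides had a median of -0.62 with 2 at the criterion, and the 7 of 212 to 397 had a median of -1.58 with 4. The 2 rRNAs, of 955 and 1582 nucleotides, had a median of -0.34 with 0. The length classes hold different kinds of RNA, and their differences were not tested.

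Among other classes of short non-coding RNA on the same arrays, the nucleolar and Cajal body RNAs had lower medians too. Over distinct values, the median difference was -1.35 for 74 box C/D small nucleolar RNAs (18 lower and 1 higher at the nominal criterion), -1.63 for 35 box H/ACA small nucleolar RNAs (22 lower, 0 higher) and -1.31 for 10 Cajal body RNAs (6 lower, 0 higher). It was -0.27 for 136 5S ribosomal RNA probe sets (24 lower, 3 higher) and -0.14 for 536 microRNAs (33 lower, 10 higher). The median levels of those last 2 classes lie under the guide to background. At such levels all named probe sets also had medians below 0 (-0.19 for mean levels of 3 to 4 and -0.14 for 4 to 5). The shares lower at the nominal criterion were 17.6% of the 5S probe sets and 6.16% of the microRNAs. Over all named probe sets they were 4.05% and 4.22% at those 2 levels. Both maltodextrin arrays lay below both controls for 43.4% of the 5S probe sets, against 24.7% of all named probe sets. Without control 2 the median was -0.23 for box C/D, -0.83 for box H/ACA and -0.93 for Cajal body RNAs, and -0.98 for the mitochondrial tRNAs. The box C/D median was -2.24 without control 1, -1.40 without maltodextrin 3 and -1.36 without maltodextrin 4. In the same order the box H/ACA median was -2.47, -1.58 and -1.60. In both classes more RNAs were lower at the nominal criterion without control 1, and far fewer without either maltodextrin array. Calls of lower probe sets over all named probe sets rose and fell in the same way. Control 2 was above control 1 by a median of 1.60 in box C/D RNAs, and it was above control 1 in 11 of the 18 mitochondrial tRNAs. Without control 2, 66.7% of the mitochondrial tRNAs, 25.7% of box C/D and 62.9% of box H/ACA RNAs were lower at the nominal criterion, against 12.1% of all named probe sets in that fit. How far a shift common to short RNAs enters each member's difference was not tested.

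**Figure D4:**
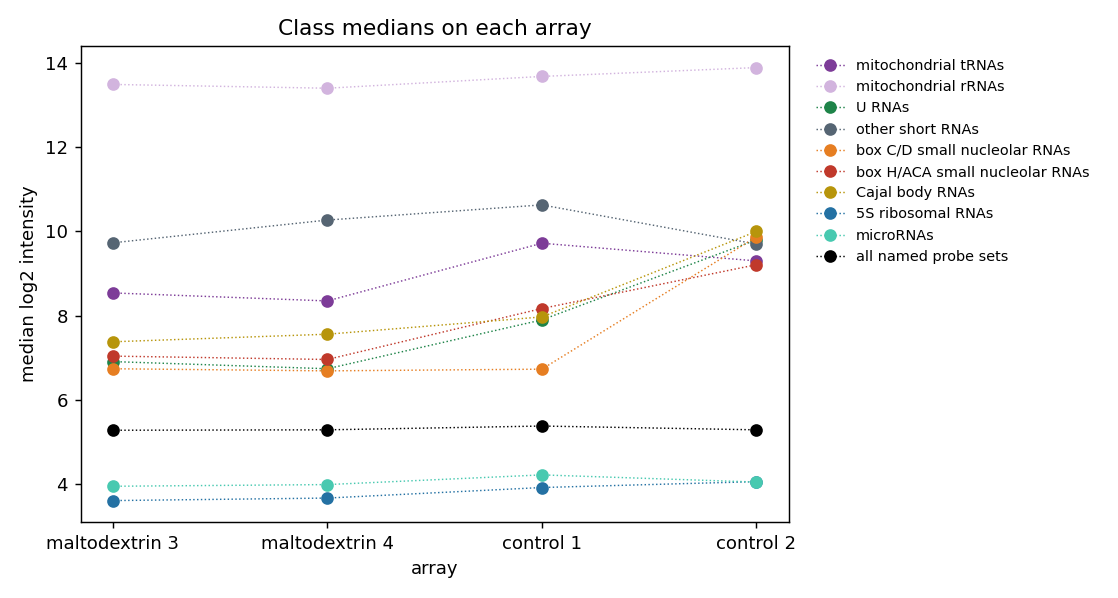
Median log2 intensity of each class of short RNA on each array (distinct values, points joined by dotted lines for reading only), with all named probe sets in black. The median of the mitochondrial tRNAs is 8.54 and 8.35 on the maltodextrin arrays and 9.72 and 9.30 on the controls, while box C/D RNAs stand high on control 2 alone; levels of different classes are not compared.

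Leaving out an array ended many calls, as given above, but it could turn a direction only where the groups overlap. The median difference of the mitochondrial tRNAs stayed between -1.28 and -0.98 with 1 array left out. Fits with a single control assume that it varies like the maltodextrin arrays, so their adjusted p-values are not given. Among members whose calls held with any 1 array left out, Rnu3a had -4.57 without control 1 and -2.46 without control 2. In the same order, Rnu3b4 had -3.13 and -1.75, Rnu1b1 -4.66 and -2.26, Rpph1 -2.54 and -1.95, and mt-Ts2 -1.70 and -1.80. Terc had 2.79 without control 1, where its control value is that of control 2 alone, and -0.62 without control 2.

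**Figure D5:**
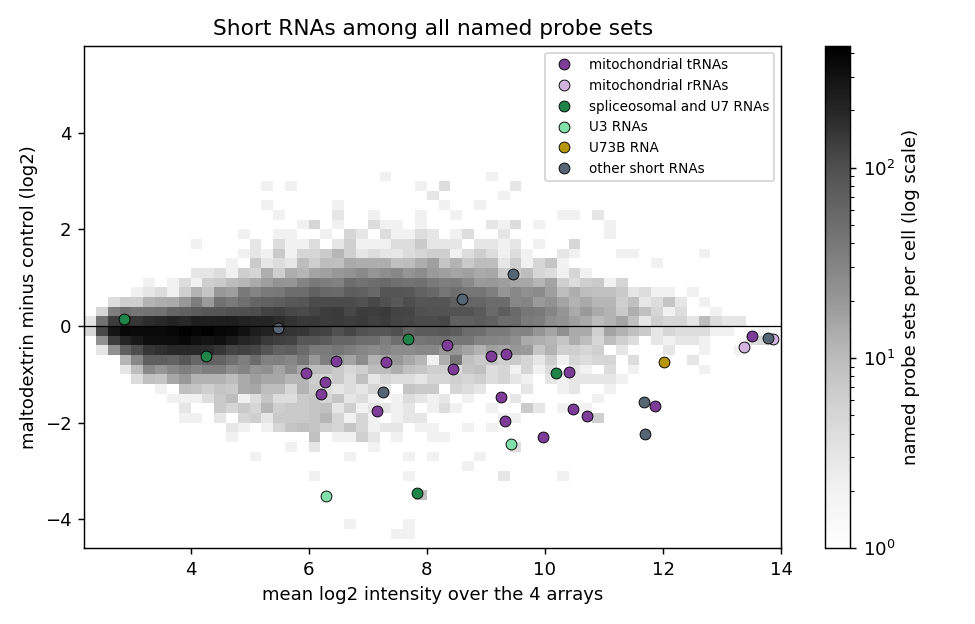
Difference between groups (vertical axis, maltodextrin minus control, log2) against the mean level over the 4 arrays (horizontal axis, log2), with all named probe sets as grey cells shaded by their number on a log scale and the 35 distinct RNAs as coloured points. The members at -3.51 (Rnu3a), -3.46 (Rnu1b1) and -2.44 (Rnu3b4) lie under most grey cells of their level.

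The protein-coding genes whose products make, process or bind these RNAs are given next. Of 217 such genes measured in 12 lists, 41 were higher and 1 was lower at the nominal criterion (18.9% and 0.461%, against 8.51% and 3.56% of all named probe sets), and their median difference was 0.30. That is near the background at their level, since probe sets with a mean log2 of 7 to 8 were higher in 20.5% and lower in 2.59%, with a median of 0.25. Their median was 0.22 and 0.38 without control 1 or control 2, and 0.26 and 0.30 without maltodextrin 3 or 4. More of these genes were higher at the criterion when either control was left out, and far fewer when either maltodextrin array was. Without control 1 more were lower too. Calls over all named probe sets changed in these same ways, and list counts below with 1 array left out are to be read beside that. No gene of these lists passed an adjusted p of 0.05 in the fit of all 4 arrays (lowest adjusted p = 0.210, limma).

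In the mitochondrial lists, no gene was lower at the criterion. The shares higher were 31.8%, 35% and 30% in the order given here. Of all named probe sets with mean levels of 6 to 7 and 7 to 8, 15.2% and 20.5% were higher. Any link between the genes of a list and the RNAs they serve was not tested. Of 22 mitochondrial aminoacyl-tRNA synthetases and related enzymes, which load the tRNAs with amino acids, 7 were higher and 0 lower, with a median of 0.51, and 3 and 4 were higher without maltodextrin 3 or 4. Gatc, a subunit of the amidotransferase that makes glutaminyl-tRNA in mitochondria, had 10.75 and 10.59 in maltodextrin and 9.12 and 8.88 in controls, a difference of 1.67 (SE 0.19, adjusted p = 0.210, limma). Yars2 and Sars2, the synthetases of tyrosine and serine, were higher by 1.17 and 0.98, while their tRNAs mt-Ty, mt-Ts2 and mt-Ts1 had -0.75, -1.75 and -0.40. Of 20 genes of mitochondrial tRNA processing and modification 7 were higher and 0 lower (median 0.37). Nsun3, which modifies the anticodon of the methionine tRNA, was higher by 1.63 (SE 0.30, adjusted p = 0.237, limma), while mt-Tm had -0.96. 1110008L16Rik, an older symbol of Prorp, the protein-only RNase P that cuts mitochondrial tRNAs at their 5′ ends, had 8.26 and 7.92 in maltodextrin and 6.98 and 6.21 in controls, a difference of 1.49 (SE 0.32). Of 20 genes of mitochondrial transcription and RNA stability 6 were higher and 0 lower (median 0.45), led by Pnpt1 (1.30), an exoribonuclease, and by Tfb2m (1.21), the initiation factor of the mitochondrial RNA polymerase. In that list 0 were higher without either maltodextrin array, and without control 2 Pnpt1 had 0.66 and Tfb2m 0.67.

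Of 11 proteins of nuclear RNase P and RNase MRP 5 were higher (45.5%) and 0 lower, with a median of 0.57. Fewer were higher without maltodextrin 3 or 4, as over all named probe sets. Pop4, a subunit of both enzymes, had 8.80 and 8.47 in maltodextrin and 7.49 and 6.75 in controls, a difference of 1.51 (SE 0.31, adjusted p = 0.249, limma), against -2.24 for Rpph1. Rpp21 and Rpp40 were higher by 0.98 and 0.85, and both calls ended without maltodextrin 3. Of 24 genes of small nuclear RNA transcription and assembly 7 were higher (29.2%) and 0 lower (median 0.43). Among them were Ints3 (0.94) and Ints9 (0.92) of the Integrator complex, which forms the 3′ ends of U RNAs. Gemin4 (0.85) of the SMN complex, which loads Sm proteins on U RNAs, was also higher. The 7 became 4 without control 2, where Ints3 had 0.49 and lost its call, 1 without maltodextrin 3 and 0 without maltodextrin 4.

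The proteins bound to U1, U2 and U3 did not share a direction. Of 14 proteins of the U1 and U2 particles 0 met the criterion (median -0.00), and Snrnp70, which binds U1 RNA directly, had 9.04 and 8.96 in maltodextrin and 9.21 and 10.22 in controls. Of 16 Sm and LSm proteins 1 was lower and 0 higher (median 0.20), the lower one being Lsm5 (-0.85), whose maltodextrin values of 4.67 and 4.88 lie under the guide to background. Of 20 proteins of the U4, U5, U6 and minor spliceosome particles 4 were higher (median 0.20), among them Zmat5 (1.26) and Zcrb1 (1.08), both of the particle that holds U11 and U12. The 4 became 7 without control 1, 0 without maltodextrin 3 and 2 without maltodextrin 4. Of 21 proteins of U3 and box C/D particles 3 were higher and 0 lower (median -0.01), and Imp4 (1.17) and Imp3 (1.01), which bind U3 RNA in the ribosome precursor, led them. Their calls ended without either maltodextrin array, as did that of Lsm5, and without control 2 Imp4 had 0.78 and Imp3 0.63.

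RNA polymerase III, which makes U6, 7SK, Y, vault, RNase P and RNase MRP RNA, had 1 of 22 genes higher and 0 lower (median 0.28). Gtf3c6, the 1 gene higher, is a subunit of its factor TFIIIC and had a difference of 0.92 (SE 0.28, adjusted p = 0.297, limma) whose call ended without control 1 or maltodextrin 3. Without control 2, 7 of the 22 were higher. Of 14 proteins of the 7SK and signal recognition particles 1 was higher, Srp72 (0.67), with a median of 0.15, and that call ended without control 2 (0.45) or either maltodextrin array. Of 13 proteins of Y RNA, vault and telomerase 0 met the criterion (median 0.12), and Dkc1, the dyskerin that binds telomerase RNA, had 7.71 and 7.72 in maltodextrin and 6.71 and 7.55 in controls. In each list compared here, levels of genes are those of their own probes and are not set against the levels of the RNAs.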

How the data were processed

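The deposited table of log2 intensities (41345 probe sets, 4 arrays) was used as deposited by the authors; the submitters' processing notes name Partek 6.6, and how signals were corrected, normalized and summed is not stated there. The authors' deposited comparison table gave symbols, a ratio, a signed fold and p-values, per the file headers. Groups follow the sample labels. The sample numbers run through both groups and pair nothing.

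The 32202 named probe sets entered a limma 3.58.1 fit (R 4.3.3, lmFit then eBayes) of maltodextrin minus control, with two-sided p-values, Benjamini-Hochberg adjustment, a prior of 2.62 degrees of freedom and 2 residual ones; the fit was tested on simulated data. With 2 arrays per group the smallest exact two-sided permutation p is 0.333, and the number of arrays limits the precision. Lists are described by counts and medians, with no set test. The members and lists were chosen with earlier results of these data known.

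Full values were given, by rule, for the 6 largest differences and 2 highest means of each class of RNA and for up to 3 genes with the largest differences in each list (the probe set with the highest mean per gene). Other members were named by their differences. RNA lengths and map order are from RefSeq (GRCm38.p6), which held all 35 symbols or their accessions. Alternatives were a minimum mean log2 of 5, quantile normalization, centred arrays, all probe sets, eBayes with trend and robust settings, an ordinary equal-variance test, the authors' deposited fold and p-values, a fold threshold of 2, probe sets that match 1 place, and each array left out.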

Additional observations from a re-analysis of the deposited data

How the results depend on the processing

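With 2 arrays a group, counts depend on the spread estimate, while directions do not depend on it. Of the named probe sets 3887 met the nominal criterion, against 1615 with an ordinary equal-variance test, 1615 with the authors' deposited fold and p-values, 1394 at a fold of at least 2, and 1288 to 6894 with 1 array left out. The count past an adjusted p of 0.05 (limma) was 0, with 4698 at an unadjusted p under 0.05, and 0 to 905 with 1 array left out. Of the 46 member probe sets 30 were lower, against 8 with the ordinary test and 8 with the authors' deposited fold and p-values. Among the fewer member probe sets that match 1 place 16 were lower. With identical probe sets counted once, a setting chosen after seeing the data, 19 of 35 were lower. Both of these counts come from smaller totals and do not show calls lost. The count of higher members was 0, 1 with centred arrays (Rny3), and 0 to 2 with 1 array left out. The median difference of U RNAs (-3.46) was -0.87 with identical probe sets counted once. Among probe sets that match 1 place it was -2.13. Those are Rnu3a (-3.51) and Rnu73b (-0.75) alone, and neither is a spliceosomal RNA. With 1 array left out, the difference of Rny1 ran from -3.13 to 0.40, that of Terc from -0.62 to 2.79, that of Rnu12 from -0.63 to 0.12 and that of Vaultrc5 from -0.44 to 0.37; with centred arrays Vaultrc5 had 0.031. The causes were not tested. Of the other members named by rule for full values, the direction held under each setting run. That was mostly fixed in advance and is no support. Where the groups do not overlap, leaving out 1 array cannot turn the sign. Settings that change only the test, the fold threshold or which probe sets enter leave each difference as it was. Outside that rule, mt-Tq and mt-Ts1 turned with 1 array left out, as given above. The fits that leave out 1 array assume that the lone array of its group varies like the other group. No paired analysis was possible because the sample numbers are not shared between groups.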
